A study of Danio rerio with 10 samples.

Results

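The 4 control arrays of a zebrafish estrogen study set the RNA of a whole adult male fish against a reference RNA, and their ratios describe how the transcripts of an unexposed male body stand to that reference. The control males were kept for 96 h in water with 0.01% (v/v) ethanol, the vehicle in which estradiol (E2) and the anti-estrogen ICI were dissolved for the E2 and E2+ICI groups, and each fish was frozen, ground whole and hybridised on 1 array. The fish RNA carried Cy3 and the reference Cy5 on every array, and the reference is described in the methods as equal amounts of male and female total RNA from pooled liver. All 4 arrays labelled Control among the 10 arrays of the series were used, and the methods of the paper also count 4 controls in the normalized data. The design text speaks of 3 control samples without naming them. Every control fish received the ethanol vehicle, so none was without any addition to the water. The age of the fish is not given in the sources used here beyond adult.

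The members are the genes whose ratio lay on the same side of 0 in all 4 fish, both in the deposited values after Lowess and in the deposited values before that step. The rule found 2467 of 5334 tested genes, with the actin gene actb2 left out. Of the 16416 probes, 6088 carried 1 gene symbol, and 6057 of those had at least 3 of 4 values and were tested. Among them 1061 probes (17.5%) of 1030 genes lay above 0 on 4 of 4 arrays in both tables, and 1544 probes (25.5%) of 1455 genes lay below 0. Some genes had separate probes on either side and are in both gene counts. Over all 16305 tested probes, with or without a symbol, the shares were 16.8% and 22.2%. After Lowess alone 3408 named probes were on 1 side of 0, of which 803 were not so before Lowess, and 13 probes lay on opposite sides in the 2 tables. At the edge of the rule, frrs1b was inside with a mean log2 ratio of 0.07 and nek8 with -0.12, while bcor, with 2.43, 2.13, 2.15 and 0.31 in fish 1 to 4, was outside because the value of fish 4 before Lowess was -0.36. The probe of eef2b was also outside, at -0.29, -0.20 and -0.29 in fish 1 to 3 and -7.05 in fish 4, where fish 2 and 3 were below 0 and fish 1 at 0.00 before Lowess.

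A ratio of a whole body to a reference organ mixes many tissues. A whole male holds mostly trunk muscle, skin, bone, blood, nervous tissue, gut and testis, while liver makes the plasma proteins, the enzymes of gluconeogenesis and amino acid breakdown and, in females under estrogen, the yolk precursor vitellogenin. Ovary contributes the egg envelope proteins and the maternal transcripts that an egg stores for the early embryo. In such a mixture fewer cells of a type and less RNA per cell cannot be told apart.

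The labels and methods name the dyes but not which channel is the numerator. The direction used here, fish over reference, is therefore the likely one, and it rests on vtg3, a vitellogenin gene known to rise with estrogen, whose mean ± SD was -6.44 ± 0.57 (n = 4) in control, 1.22 ± 0.69 (n = 3) in E2 and -0.15 ± 0.21 (n = 3) in E2+ICI fish. The values are log2 ratios, so 1 unit is a 2-fold difference, and they compare the fish with the reference for 1 probe, never the level of 1 gene with that of another. Dye and sample cannot be told apart, since no array had the dyes exchanged. The reference is 1 RNA pool, so the p-values of limma below measure the spread of 4 fish and their arrays, not that of the reference, and an exact sign test over 4 arrays cannot go below p = 0.125.

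Fish 4 stood apart from the others. The log2 ratios of fish 1, 2 and 3 correlated across probes at r = 0.822 to 0.898, and those of fish 4 with the others at 0.676 to 0.718. Its array also had the widest ratios, with an SD of 1.07 against 0.80 to 0.90, and the lowest median before Lowess, -0.384 against -0.124 to 0.109. The 4 control arrays together were wider than the 6 arrays of treated fish, with SDs of 0.80 to 1.07 and 0.37 to 0.56. These ranges did not overlap (mean difference 0.43, exact permutation test, two-sided p = 0.0095). The test was not planned beforehand, and without overlap its p is the smallest that 4 and 6 arrays allow. The 172 spots of 1 actin transcript, actb2, averaged -0.277 to -0.153 per array with an SD of 0.110 to 0.123 within an array, and 0 of the 172 met the rule on both tables. In fish 3 only 158 of these spots had a value. Before Lowess 61, 30, 32 and 55 probes with a symbol were at 0.00 in fish 1 to 4, spots of actb2 among them. The SD of actb2 was therefore not taken as a measure of spot error.

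In the limma fit over 16305 probes, 5411 (33.2%) differed between control fish and reference at an adjusted p under 0.05, 2287 (14.0%) of them higher and 3124 (19.2%) lower in the fish, and 7348 probes had an unadjusted p under 0.05. Among named probes 821 (13.6%) were higher and 1378 (22.8%) lower. The counts of the gene lists below are to be read beside these shares. Probes of members that also passed the test numbered 757 higher and 1265 lower. The rule and the test use the same 4 values, so this overlap follows largely from the selection and is no separate result. The 2 directions differed more in size than in number. Of all probes that passed, 493 had a mean of at least 1 in the direction of the fish and 1449 a mean of -1 or lower, and among named probes only 13 reached 2 while 180 reached -2 and 42 reached -4. Without fish 1, 2 or 3 the number of probes that differed was 3381, 3030 or 3296, and without fish 4 it was 6760.

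**Figure D1:**
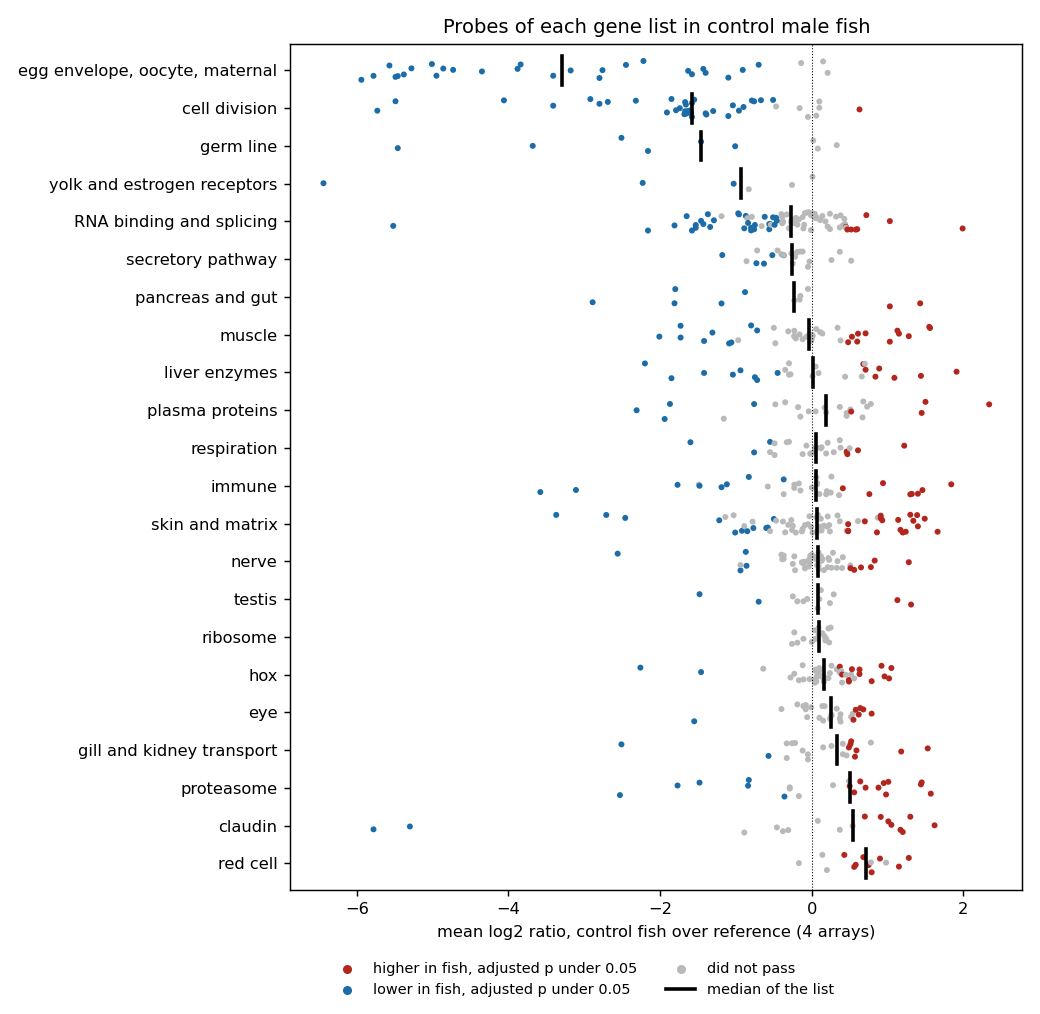
Mean log2 ratio of every tested probe (points, x axis) in 22 gene lists (rows), coloured by the limma call at an adjusted p under 0.05, with the median of each list as a bar. The egg envelope, oocyte and maternal list has its median at -3.29 and the red cell list at 0.72, and 16 ribosomal probes lie between -0.26 and 0.25.

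The marker genes of liver had no common direction, while those of ovary did. Of the 6 probes for defining liver genes, 1 was higher in whole fish, 2 were lower and 3 did not pass, with a median of 0.36. The 2 lower ones were fabp10a, with a mean of -1.85, and apoa1a, with -1.94. The probe of tfa, which did not pass, was at 0.00 before Lowess in fish 1 and 2. The 5 probes for defining ovary genes were all lower in the fish, with a median of -5.38 and array medians of -6.50 to -4.99. Defining testis genes had 0 probes among those with a symbol. The material is called the reference here, and its tissue make-up was not tested. On the arrays of treated fish, which the labels give the same kind of reference, the medians of the 5 ovary probes were 0.22 to 0.52 with E2 and -1.31 to 0.01 with E2+ICI, so the distance between fish and reference in these genes was found on the control arrays and not on those of E2 fish. Whether the fish or the reference differed between those arrays cannot be told apart from the ratios.

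Genes of yolk and of the egg were among the lowest in control males. The transcript of vtg3 was at -6.71, -5.64, -6.47 and -6.96 in fish 1 to 4 and at -6.43, -5.58, -6.24 and -6.92 before Lowess. All fish were far below the reference, which held 87.0-fold more of this transcript (mean -6.44, SE 0.23, adjusted p = 7.58e-05). Of the 6 probes for vitellogenins, the estrogen receptors and nothepsin, 0 were higher (0 also at an unadjusted p under 0.05) and 3 lower, with a median of -0.93 against 0.01 over all probes. The liver protease nothepsin, nots, was at -2.08, -2.14, -1.77 and -2.94 (adjusted p = 0.000795). The estrogen receptor alpha gene esr1 was at -1.50, -1.33, -0.84 and -0.43, with an adjusted p of 0.0116. Thus esr1 was lower in all fish, and which fish was nearest to the reference depended on the table, with fish 4 after Lowess and fish 3 before it, at -1.10. The 3 probes for the beta receptors esr2a and esr2b did not pass, with means of -0.83 to 0.01.

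Of 30 tested probes for egg envelope, oocyte and maternal genes, 27 were lower, 0 were higher (0 also at an unadjusted p under 0.05) and 3 did not pass, with a median of -3.29 and array medians of -3.37 to -3.05. The egg envelope is built of zona pellucida proteins, and 5 of 5 of their probes were lower. The probe of zp3a.1 had -6.83, -4.99, -5.33 and -6.62 in fish 1 to 4, a mean of -5.94 ± 0.92 (SD). The probe of zp3b had -5.71, -5.04, -5.12 and -5.66, a mean of -5.38 ± 0.35. Fish 1 and 4 were the lowest and fish 2 and 3 the highest for both genes. The weakest member of the family was zp3d.1, at -1.37, -1.12, -1.27 and -1.94.

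Regulators of stored maternal RNA were also low. The cytoplasmic polyadenylation factor cpeb1b, which controls translation in oocytes, had a mean of -5.01 ± 0.43, and its relative cpeb1a a mean of -0.14 ± 0.05 that did not pass (adjusted p = 0.309). The zygote arrest genes zar1 and zar1l averaged -3.88 ± 0.40 and -4.35 ± 0.35. The kinase gene mos, needed for meiotic maturation, was at -4.32, -3.75, -3.89 and -3.40. The oocyte transcription factor gene nobox was much closer to the reference, at -0.91, -0.71, -0.58 and -0.61, although it passed (adjusted p = 0.00603). The genes pou5f3, sox19b and cth1, whose transcripts eggs store for the embryo, were low with little spread, and cth1 read -4.87, -4.69, -4.72 and -5.18. The 2 probes of sox19b had means of -3.18 ± 0.03 and -2.76 ± 0.27, so that separate probes of this gene lay within 0.5 log2 units. The oogenesis-related gene org varied most among fish, at -6.04, -4.02, -5.29 and -6.95.

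Germ line genes that both sexes use were lower as well. Of 9 probes, 6 were lower, 0 higher (1 at an unadjusted p under 0.05) and 3 did not pass, with a median of -1.46. The RNA binding protein gene dazl was at -3.97, -3.26, -3.58 and -3.93, and nanos3 averaged -2.51 ± 0.26. The vasa helicase gene ddx4 had 2 probes, with means of -2.16 ± 0.43 and -1.46 ± 0.59. The meiotic gene sycp1 and the receptor kinase gene kita lay on both sides of 0, with means of 0.08 and 0.02. In the list of testis genes 2 of 13 probes were higher, 2 lower and 9 did not pass (median 0.08). This is 15.4% each way, against 13.6% higher and 22.8% lower of all named probes. The 4 were the steroid enzyme cyp17a1 at -1.48, spata18 at -0.70, the cholesterol carrier star at 1.13 and spag1a at 1.31.

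**Figure D2:**
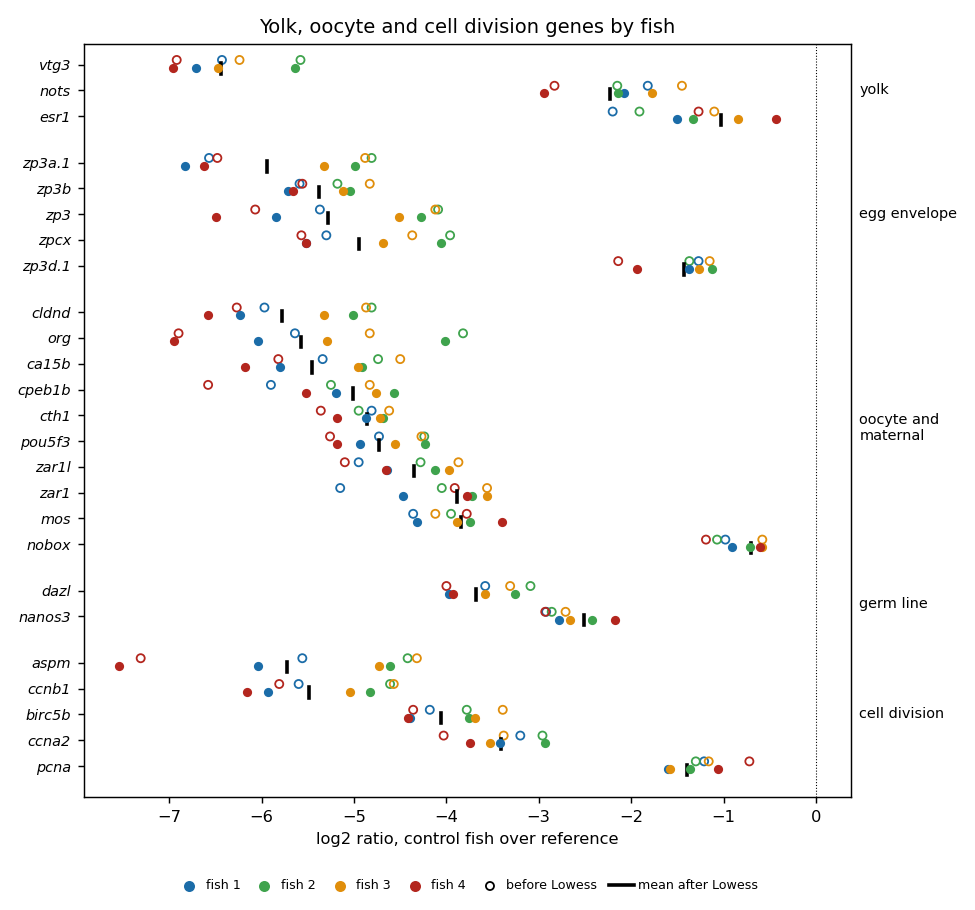
Log2 ratio of control fish over reference (x axis) for yolk, egg envelope, oocyte, germ line and cell division genes (rows), with 1 filled point per fish after Lowess, 1 open point before Lowess and the mean as a bar. All points drawn lie below 0, from -7.55 for aspm in fish 4 to -0.43 for esr1 in fish 4. For aspm the probe with the lower mean is drawn, and the other probe, with a mean of -0.05, is not.

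Genes of the cell division cycle followed, in a list drawn up after the values were seen. Of 41 probes, 34 were lower, 1 was higher and 6 did not pass, with a median of -1.58. Members of this list are active in any dividing cell, and 7 of its probes, among them those of ccnb1 and pcna, also stand in the oocyte list. The spindle gene aspm was at -6.04, -4.61, -4.73 and -7.55, while another probe of the same gene averaged -0.05 and did not pass. Cyclin B1, ccnb1, was at -5.93, -4.83, -5.04 and -6.16. The survivin gene birc5b, a part of the chromosomal passenger complex, averaged -4.06 ± 0.39, cyclin A2, ccna2, averaged -3.41 ± 0.34 and the maintenance DNA methyltransferase gene dnmt1 averaged -2.92 ± 0.24. The replication clamp gene pcna was nearer to 0, at -1.60, -1.36, -1.58 and -1.06. The helicase subunit mcm3 was the member that was higher, at 0.14, 0.69, 0.61 and 1.09 (adjusted p = 0.0347), and mcm2, mcm6 and top2a had means of 0.06 to 0.10 that did not pass.

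The lowest 15 means also held genes outside these lists. The retinoid X receptor gene rxrba was at -6.76, -5.40, -5.03 and -6.92 and the mesoderm T-box gene tbxta at -6.72, -6.24, -4.34 and -6.74. Among RNA binding and splicing genes, a list also drawn up after the values were seen, the median was -0.27. Of its 84 probes 29 (34.5%) were lower and 8 (9.52%) higher, against 22.8% and 13.6% of all named probes. Its extremes were rbm8a, a part of the exon junction complex, at -6.15, -5.02, -5.44 and -5.46, and the muscle splicing factor gene rbm24b, at 2.05, 1.78, 1.97 and 2.17. The other 47 probes of this list did not pass.

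Plasma protein genes were called about as often as all probes in either direction. Of 25 probes for plasma proteins, 4 were higher, 4 lower and 17 did not pass (median 0.19), a share of 16% each way against 14.0% and 19.2% of all probes. Of 25 probes for liver enzymes and other liver proteins, 7 were higher, 8 lower and 10 did not pass (median 0.01). These shares, 28.0% higher and 32.0% lower, were both above those of all probes. The heme carrier hemopexin, hpxb, was at 2.11, 1.98, 2.56 and 2.71 in fish 1 to 4, or 5.07-fold higher in the fish (adjusted p = 0.000308). Apolipoprotein E, apoeb, was at 1.61, 1.27, 1.43 and 1.69, and haptoglobin, hp, at 0.92, 1.88, 1.78 and 1.22. Against them stood apolipoprotein A-I, apoa1a, at -2.44, -1.82, -1.55 and -1.93. The fish liver fatty acid binding protein gene fabp10a, a usual marker of hepatocytes, was at -2.64, -0.86, -1.16 and -2.76 (adjusted p = 0.0122).

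Several plasma protein genes separated the fish rather than the fish from the reference. Alpha-2-HS-glycoprotein, ahsg1, was at -0.63, 1.74, 1.85 and -0.90, mannose binding lectin, mbl2, at -0.41, 1.63, 1.83 and -0.12 and antithrombin, serpinc1, at -0.11, 1.21, 1.76 and 0.25. In all 3 genes fish 2 and 3 were above fish 1 and 4, and none passed (adjusted p = 0.492, 0.231 and 0.114). The list medians had the same order, 0.49 and 0.64 in fish 2 and 3 against -0.27 and -0.12 in fish 1 and 4. Fetuin B, fetub, and leg1.1, a gene enriched in liver, were lower in every fish, yet also nearest to the reference in fish 2 and 3. Their values were -1.79, -0.80, -1.01 and -3.86 for fetub and -2.80, -1.23, -1.67 and -3.54 for leg1.1. Complement c3a.1 had 1.37, 0.80 and 1.27 in fish 1 to 3 and -4.83 in fish 4.

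Among liver enzymes, mat1a, which makes S-adenosylmethionine in liver, was at 1.69, 1.94, 2.00 and 2.03 (3.77-fold higher). The arginine enzymes arg2 and ass1 averaged 1.44 ± 0.45 and 1.09 ± 0.06, and the transcription factor gene foxa3 0.89 ± 0.13. The gluconeogenic enzyme fbp1b was lower, at -2.22, -1.73, -1.79 and -3.06, while pck1 of the same pathway was at 0.47, -1.44, -1.05 and 0.82 and did not pass (adjusted p = 0.604). The cytochrome cyp1a had 2 probes with means of -1.42 ± 0.78 and -0.72 ± 0.28. The 2 probes of tyrosine aminotransferase, tat, passed in opposite directions, with means of -1.04 ± 0.31 and 0.84 ± 0.18.

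Digestive genes lay on both sides of the reference. Of 11 probes for pancreas and gut, 5 were lower, 2 higher and 4 did not pass (median -0.23). The shares were 45.5% lower and 18.2% higher, against 22.8% and 13.6% of all named probes. The intestinal fatty acid binding protein fabp2 was at -4.14, -2.26, -1.86 and -3.29, the peptide transporter slc15a1b averaged -1.81 ± 0.70 and chymotrypsinogen ctrb.3 -1.80 ± 0.42. The members that were higher were islet hormones, with glucagon, gcga, at 0.53, 1.00, 1.13 and 1.48 and somatostatin sst2 at 1.22, 2.15, 1.57 and 0.80, and insulin, ins, averaged -0.16 and did not pass, nor did the pancreatic enzyme genes prss1 and cpa5 and the gut villin gene vil1, with means of -0.23, -0.15 and -0.05.

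Muscle is the bulk of a fish, yet its defining genes were not higher in whole fish than in the reference. Of 11 probes for defining muscle genes, 0 were higher (0 also at an unadjusted p under 0.05) and 5 were lower, with a median of -0.97. Of these, actc1b was at 0.00 before Lowess on all 4 arrays, as was the trypsin gene prss1 of pancreas. The skeletal creatine kinase ckma was also at 0.00 after rounding. A total of 21 probes, of 7 named genes and others without a symbol, were within 0.0015 of 0 on all 4 arrays before Lowess, among them the abundant transcripts eef1a1l1, rpl36a and b2m. No spot intensities were in the tables used here, so the part of such spots in the muscle and pancreas values was not tested.

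The wider muscle list of 41 probes had 11 higher, 9 lower and 21 that did not pass (median -0.03). The shares were 26.8% higher and 22.0% lower, against 13.6% and 22.8% of all named probes. The lower members included proteins of fast trunk muscle. The fast myosin light chain mylz3 was at -1.41, -1.95, -2.41 and -2.27, mylpfa at -1.08, -1.80, -1.92 and -0.89 and the troponin C gene tnnc2.2 at -1.50, -2.19, -1.86 and -1.36. The calcium buffer pvalb1 averaged -1.73 ± 1.23 and passed, but at -0.35, -2.75, -2.79 and -1.04 it rested on fish 2 and 3, and its value in fish 1 before Lowess was 0.10, so that it does not meet the rule. The tropomyosin gene tpma had the same order, with -0.44, -1.62, -2.05 and -1.14. Other fast muscle genes did not pass, among them myhz2 with a mean of -0.48, tnnt3a with -0.23, atp2a1 with -0.07, myhz1.3 with 0.01 and actn3b with 0.14.

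The higher muscle members included genes of myofibril assembly and turnover and of heart and slow muscle. The ubiquitin ligase trim63a, which acts in muscle protein breakdown, averaged 1.56 ± 0.34 with its highest value, 2.06, in fish 4, and the myosin chaperone unc45b at 1.85, 1.23, 1.35 and 1.75. Desmin, desma, was at 1.80, 0.84, 0.73 and 1.74. The myosin heavy chain myh7 averaged 1.15 ± 0.53, cardiac troponin T, tnnt2a, 1.13 ± 0.45, the slow troponin I tnni1b 1.03 ± 0.32 and the atrial light chain myl7 0.71 ± 0.34. All of these passed and lay above 0 in all fish in both tables. The genes tnnc1a and actc1a, also of heart and slow muscle, had means of 0.06 and -0.50 that did not pass.

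**Figure D3:**
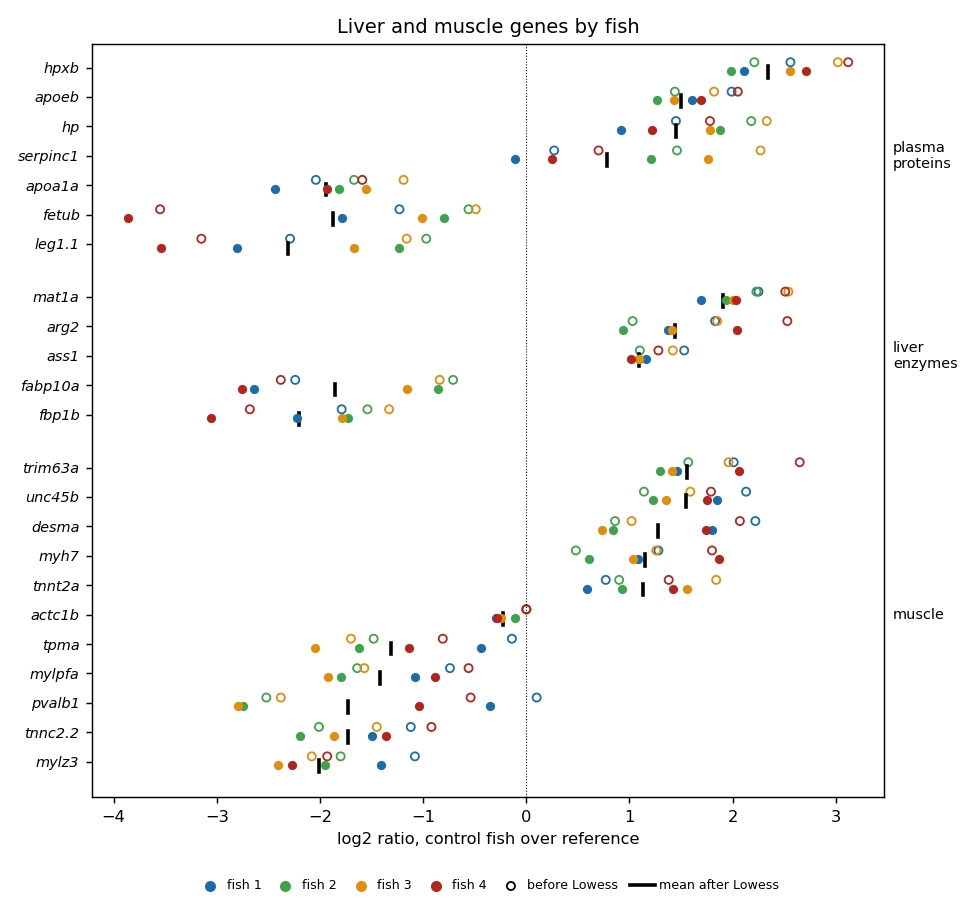
Log2 ratio of control fish over reference (x axis) for plasma protein, liver enzyme and muscle genes (rows), with 1 filled point per fish after Lowess, 1 open point before Lowess and the mean as a bar. Genes of 1 tissue lie on both sides of 0, as hpxb at a mean of 2.34 and leg1.1 at -2.31, or trim63a at 1.56 and mylz3 at -2.01, and all open points of actc1b lie at 0.00.

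The highest means were smaller than the lowest and belonged to genes of many functions. The monocarboxylate transporter gene slc16a9a was at 2.44, 2.34, 2.87 and 3.74 in fish 1 to 4, a 7.20-fold difference (adjusted p = 0.00068). The epidermal surface antigen gene lye was at 2.46, 2.62, 2.75 and 3.14 and the cobalamin carrier gene tcnbb at 2.24, 2.55, 2.80 and 2.68. All 4 fish were above 2 for these genes. The actin regulator twf2 averaged 2.54 ± 0.80, with 3.07, 3.18 and 2.47 in fish 1 to 3 and 1.43 in fish 4. The mitophagy receptor gene bnip3lb was at 2.36, 2.16, 1.99 and 2.56, the mitochondrial chaperone gene clpxa at 2.28, 1.95, 1.98 and 2.68 and the chromatin protein gene hmgb3a at 2.13, 2.13, 1.89 and 2.27. The ubiquitin protease gene usp2a averaged 2.05 ± 0.48, the transporter gene slc16a6b 2.09 ± 0.39 and mlf1 1.98 ± 0.31. The genes plac8.1 and si:ch73-269m14.4 were higher in fish 2 and 3 than in fish 1 and 4, at 1.38, 2.63, 2.62 and 1.78 and at 0.95, 2.79, 2.97 and 1.44.

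Red cell genes were higher. Of 14 probes, 9 were higher, 0 lower (0 also at an unadjusted p under 0.05) and 5 did not pass, with a median of 0.72 and array medians of 0.40 to 0.86. The adult globin genes hbaa1 and hbba1 were close among fish, hbaa1 at 0.73, 0.75, 0.90 and 0.77 and hbba1 at 0.50, 0.56, 0.58 and 0.66. Genes of red cell formation varied more. The heme synthesis enzyme alas2 was at 1.71, 0.42, 0.44 and 2.02 and the transcription factor gene klf1 at 1.33, 0.33, 0.48 and 1.46, so that fish 1 and 4 were above fish 2 and 3 in both. The blood stem cell factor tal1 was at 1.43, 0.91, 0.90 and 1.88. The factor gata1a had no value in fish 1 and 0.65, 0.47 and 1.82 in fish 2 to 4, and did not pass (n = 3, adjusted p = 0.0596).

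Genes of skin, bone and matrix lay on both sides of the reference. Of 66 probes, 18 were higher, 11 lower and 37 did not pass (median 0.07). The shares were 27.3% higher and 16.7% lower, against 13.6% and 22.8% of all named probes. The type I collagen genes, the main protein of bone, scale and dermis, were lower in the fish. Here col1a1a was at -3.76, -3.09, -3.06 and -3.58, col1a2 at -2.46, -2.47, -2.60 and -3.32 and col1a1b at -2.34, -2.06, -2.48 and -2.95. The collagen binding protein sparc averaged -1.22 ± 0.17. Some epithelial genes were higher, while others did not pass, among them cdh1 with a mean of -1.14, pkp3a with -1.03, krt5 with -0.13 and krt8 with 0.13. The means of cdh1 and pkp3a rested on fish 4, at -3.99 and -3.08. In fish 1 to 3 cdh1 was at -0.28, -0.28 and 0.01 and pkp3a at 0.02, -0.37 and -0.70. The probe of krt5 was at 0.00 before Lowess in fish 1, 3 and 4. The epidermal stem cell factor tp63 was at 0.76, 0.93, 1.76 and 1.90, the keratin krt4 at 0.71, 1.07, 1.64 and 1.55 and the annexin anxa1b at 1.32, 1.44, 1.99 and 1.91. The matrix protease inhibitor timp2b averaged 1.49 ± 0.22. The lipid transporter abca12, named after its values were seen for its role in the skin barrier, was at 1.70, 1.72, 1.42 and 1.77.

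Claudins, the proteins that seal tight junctions between epithelial cells, lay on both sides of the reference. In this list, drawn up after the values were seen, 8 of 17 probes were higher, 2 lower and 7 did not pass (median 0.54). The shares were 47.1% higher and 11.8% lower, against 13.6% and 22.8% of all named probes. The 2 lower members were cldnd, at -6.23, -5.01, -5.32 and -6.58, and cldng, at -5.64, -4.78, -5.11 and -5.66. The higher members ran from cldn3c, with a mean of 0.70, to cldn23.1, with a mean of 1.62. Between them cldn1 was at 1.58, 1.80, 1.12 and 0.70, cldni at 0.92, 1.21, 1.33 and 1.37 and cldnf at 1.33, 0.96, 1.06 and 1.33. Ion transport genes of gill, skin and kidney had 7 of 22 probes (31.8%) higher, 2 (9.09%) lower and 13 that did not pass (median 0.33). The shares of all named probes were 13.6% and 22.8%. Carbonic anhydrase ca2 was at 1.24, 0.89, 1.42 and 2.56 and the water channel aqp3a at 0.92, 0.92, 1.46 and 1.42. The phosphate transporter slc34a2a was at -2.89, -2.33, -2.30 and -2.50.

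**Figure D4:**
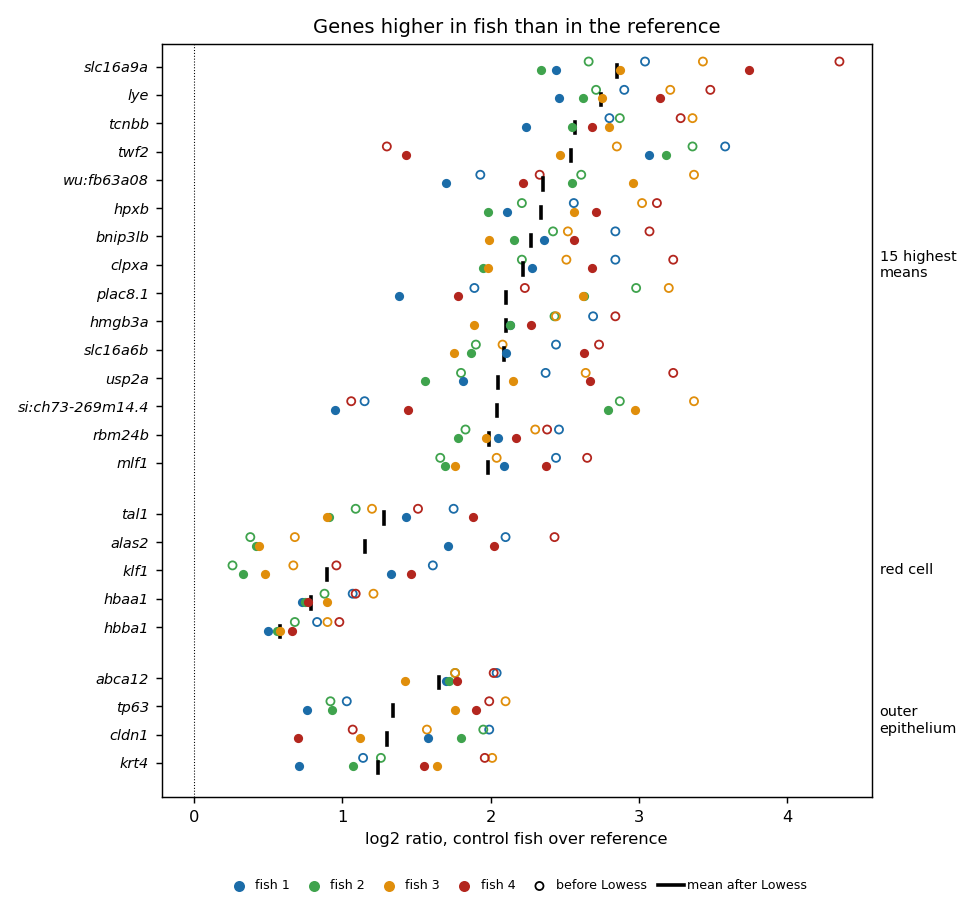
Log2 ratio of control fish over reference (x axis) for the 15 named genes with the highest means, red cell genes and genes of outer epithelium (rows), with 1 filled point per fish after Lowess, 1 open point before Lowess and the mean as a bar. All points lie above 0, and fish 1 and 4 (blue and red) lie above fish 2 and 3 for alas2 and klf1 and below them for plac8.1.

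Immune genes also lay on both sides. Of 33 probes, 8 were higher, 8 lower and 17 did not pass (median 0.06). This is 24.2% each way, against 13.6% higher and 22.8% lower of all named probes, so the lower share was close to that of all named probes. The higher members included some genes of phagocytes, the cells that engulf microbes, while ncf1, lcp1, csf1ra and spi1b, also used by these cells, had means of -0.23, 0.10, 0.20 and 0.25 that did not pass. Myeloperoxidase of neutrophils, mpx, was at 1.71, 1.75, 2.01 and 1.88 and the macrophage gene mpeg1.1 at 0.76, 0.79, 2.33 and 1.97. The signalling adaptor gene hcls1 of blood cells was at 1.42, 1.53, 1.24 and 1.03 and lysozyme, lyz, at 0.49, 1.73, 1.34 and 0.18. The chemokine gene cxcl14 was at 1.27, 1.26, 1.47 and 1.60.

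Genes of antigen presentation were lower or did not pass. This group was formed within the immune list after the values were seen, and 4 of its 6 probes were lower and 0 higher. A further MHC class I gene, mhc1uda, stood outside that list and was not counted. It was also lower, at -4.48, -3.69, -3.80 and -3.92. The MHC class I genes mhc1ufa and mhc1uba were at -3.63, -3.33, -3.37 and -3.99 and at -3.86, -3.77, -2.03 and -2.78. The invariant chain genes cd74a and cd74b of class II presentation averaged -1.12 ± 0.65 and -1.19 ± 0.53. The light chain gene b2ml did not pass and was at -0.07, -0.73 and 0.15 in fish 1 to 3 and -5.29 in fish 4, and b2m was among the probes at 0.00 before Lowess.

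The proteasome, which degrades proteins and cuts the peptides that MHC class I presents, was divided as well. Of its 22 probes 11 were higher and 6 lower (median 0.50). The subunits and the activators that replace or join the standard core in immune cells had 5 of 6 probes lower and 0 higher. Of these, psmb12 was at -2.87, -2.25, -2.52 and -2.47, psmb9a at -1.78, -1.80, -1.61 and -1.87 and psmb13a at -1.72, -1.86, -1.20 and -1.17. The other 16 probes, for core subunits, caps and assembly factors, had 11 higher and 1 lower, with a median of 0.68. The core subunit psmb7 was at 1.88, 1.04, 1.07 and 1.80, psmb5 at 1.26, 0.97, 1.08 and 0.62 and psmb4 at 1.04, 0.76, 1.11 and 1.13, and the 2 probes of the cap subunit psmd11b averaged 1.44 ± 0.47 and 1.57 ± 0.55. The lower exception was the activator psme3, at -0.98, -0.99, -0.72 and -0.65. This division of the proteasome was drawn after the values were seen.

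**Figure D5:**
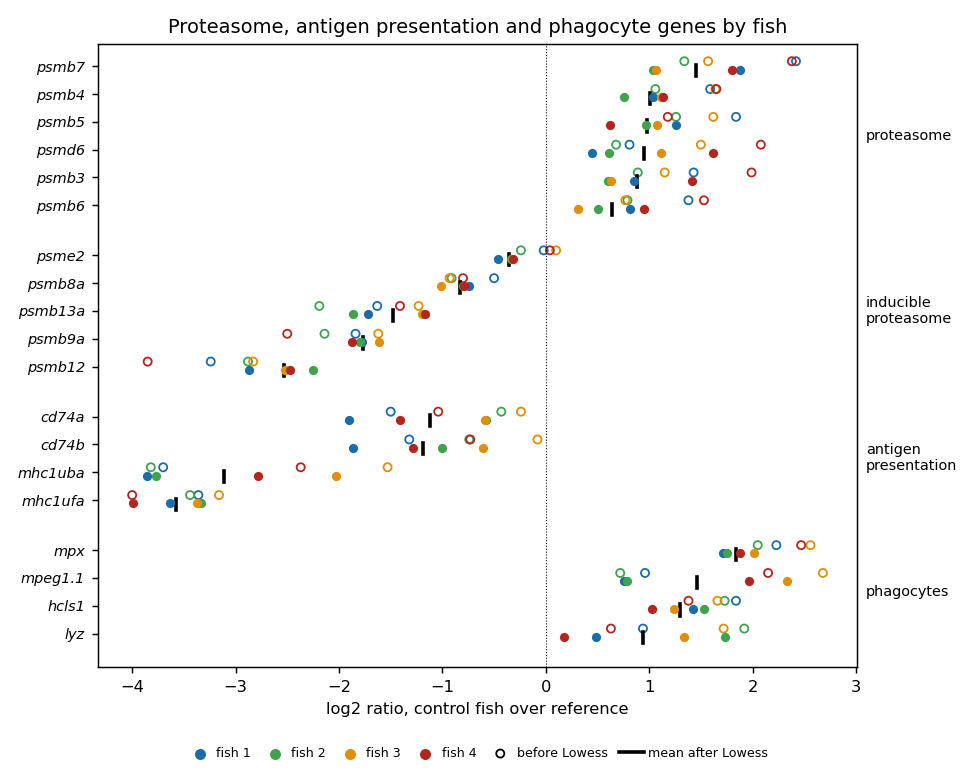
Log2 ratio of control fish over reference (x axis) for proteasome, antigen presentation and phagocyte genes (rows), with 1 filled point per fish after Lowess, 1 open point before Lowess and the mean as a bar. The 6 core and cap subunits shown have means of 0.64 to 1.45 and the 5 inducible ones means of -2.53 to -0.36, and psme2 lies on both sides of 0 before Lowess.

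Lists of other tissues and of housekeeping functions had medians close to the reference, but their shares of higher and lower probes differed. Of 50 nerve probes, 6 were higher and 4 lower (median 0.08), and the array medians were 0.32 and 0.43 in fish 1 and 4 against -0.30 and -0.31 in fish 2 and 3. The glial filament gene gfap had 2 probes, at 1.64, 0.28, 0.96 and 2.26 and at 1.46, 0.60, 0.44 and 0.83, while the axon growth gene gap43 was at -2.96, -2.76, -1.27 and -3.24. Of 10 probes for defining nerve genes, 2 were higher, 1 lower and 7 did not pass, those of elavl3, gad2 and snap25a. Of 27 eye probes, 6 (22.2%) were higher and 1 (3.7%) lower (median 0.26). Of 5 probes for defining lens and retina genes, 1 was higher, the lens crystallin crybb1, at 1.18, 0.78, 0.72 and 0.46. The other 4, of gnat1, gnat2 and opn1mw1, did not pass, with means of -0.40 to 0.17. Of 52 probes of hox genes, which give the trunk its positional identity, 12 (23.1%) were higher and 2 (3.85%) lower (median 0.16), in a list drawn up after the values were seen. The highest was hoxb5a, at 1.17, 0.76, 1.05 and 1.24, and 2 probes of hoxc8a averaged 0.96 ± 0.26 and 1.02 ± 0.35. The 2 lower members were hoxa2b, at -0.89, -1.78, -1.72 and -4.65, and hoxb6a, at -1.17, -1.36, -0.86 and -2.45. In both, fish 4 was the lowest.

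The 16 probes of ribosomal proteins had means of -0.26 to 0.25, and 0 passed in limma, 0 also at an unadjusted p under 0.05. Of the 16, 5 met the rule above 0 and 0 below it, where 17.5% and 25.5% of all named probes did. Before Lowess the array medians of the ribosomal probes were 0.27, 0.28, 0.50 and 0.30 in fish 1 to 4, against -0.07, 0.16, 0.19 and 0.01 after it. Some spots were at 0.00 before Lowess, those of rpl36a in all fish, rpl6 in fish 1 and 4, rps18 in fish 1 and 2 and rps20 in fish 1. The part of such spots in these values was not tested. Mitochondrial respiration had 4 of 26 probes (15.4%) higher and 3 (11.5%) lower (median 0.05), against 13.6% and 22.8% of all named probes. In this list cox10, a factor of heme A synthesis, had a mean of 1.22 ± 0.30, and the malate dehydrogenase mdh1ab was at -1.92, -1.65, -1.44 and -1.39. The secretory pathway had 5 of 22 probes lower and 0 higher (1 at an unadjusted p under 0.05), with a median of -0.26, and its share of lower probes, 22.7%, was close to the 22.8% of all named probes. The disulfide isomerase p4hb was at -1.35, -0.70, -0.86 and -1.81.

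Probes of a gene did not always agree. Of 494 genes with 2 or more tested probes, actb2 left out, 9 had probes that passed in opposite directions, namely brd3a, camsap1a, flot1b, hnrnpua, nck2a, nr3c1, ppp1r3ca, snx12 and tat. The glucocorticoid receptor nr3c1 had the widest gap, with 1 probe at -4.64, -3.77, -4.22 and -5.09, another at 0.41, 0.19, 0.82 and 1.02 and one more, with a mean of -0.30, that did not pass. The direction of these 9 genes is not settled by the array.

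Among the 2022 probes of members that passed, fish 4 lay farthest from the mean of the probe for 932 and was the highest fish for 954. The root mean square deviation from the probe mean was 0.411 in fish 4 and 0.264 to 0.299 in the others. A further set of genes, chosen after their values were seen, was above 0 in all fish but far higher in fish 1 and 4. The cholesterol enzyme gene ch25hl1.1 was at 1.02 and 0.95 in fish 2 and 3, at 2.29 in fish 4 and higher still in fish 1, the cholesterol exporter abca1a was at 2.07, 1.15, 0.97 and 2.83 and the growth hormone receptor ghrb at 2.24, 0.96, 1.35 and 2.95. The mitophagy receptor bnip3 averaged 1.92, with 2.38 and 2.82 in fish 1 and 4. In these genes, as in alas2 and desma, the fish fell into the same pairs as for the plasma protein genes ahsg1, mbl2 and serpinc1, but with the opposite order. The arrays of fish 1 and 4 also had the wider ratios, with SDs of 0.90 and 1.07 against 0.80 and 0.81 for fish 2 and 3. The part of this width in the pairs was not tested.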

How the data were processed

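Whole male zebrafish were hybridised with a common reference on spotted Compugen arrays of 16416 oligonucleotides. The authors subtracted local background in GenePix, applied Lowess within each array and deposited log2 ratios, with a second deposited table of log2 ratios before Lowess. Software versions are not given in the sources used here. No intensities were used, so precision rests on the number of arrays (n = 4). Each array held an individual fish, and the authors selected arrays by their hybridisation quality.

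limma 3.58.1 (R 4.3.3) tested, two-sided, whether the mean of the 4 control arrays differed from 0 for each of 16305 probes with at least 3 values, and p-values were adjusted after Benjamini and Hochberg over this whole set. The script was tested on simulated data. Means are given with SD over 4 fish. Python 3.11.15, pandas 2.3.3, scipy 1.17.1 and matplotlib 3.10.9 served for counts, the permutation test and plots. Symbols came from the platform annotation, and 6019 of 6088 were found in RefSeq by gene identifier.

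The members, the 18 gene lists and the rule for named genes were chosen with earlier results of these data known, and 4 lists were added after the values were seen. The rule named, among members that passed, the 15 highest and 15 lowest means, up to 4 of each in every list, list members that a sentence needs, and always vitellogenins, esr1, fabp10a and genes with disagreeing probes.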

Additional observations from a re-analysis of the deposited data

Results flagged for a closer look

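For 194 values, namely the named probes with 4 values, the medians of the gene lists and array summaries, the gap of the outermost fish to its neighbour was set against the range of the 4 fish, and 9 exceeded the critical value of Dixon for 4 samples. Chance alone gives about 1 in 20, so 9 of 194 are about as many as chance gives, and none of the flags below is set apart from chance. In 6 of the 9 the outermost fish was fish 4.

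Fish 4 was lower than the others for the bromodomain gene brd3a at -2.49 (others -1.11 to -0.84, 1 of 2 probes), the collagen gene col1a2 at -3.32 (-2.60 to -2.46), the cytochrome gene cyp1a at -2.57 (-1.18 to -0.92, 1 of 2 probes) and the probe of the glucocorticoid receptor nr3c1 that did not pass at -1.65 (0.04 to 0.33). Its median of the muscle list was -0.13 (0.01 to 0.02), and its median of the claudin list was 0.28 (0.70 to 0.72). Fish 2 was apart for hoxc9a at 0.73 (0.97 to 1.00) and for spata18 at -0.43 (-0.82 to -0.77). Fish 3 was apart for the sorting nexin gene snx12 at -1.99 (-1.75 to -1.73). Before Lowess the fish apart was another for these 3 probes, with fish 4 lowest for hoxc9a at 0.50 and for spata18 at -0.94, and fish 1 highest for snx12 at -1.66.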

How the results depend on the processing

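The count of probes that differed (5411, 2287 higher and 3124 lower) depended most on single arrays and on a minimum size. Leaving out 1 fish gave 3030 to 6760 probes in all, 1046 to 3003 higher and 1984 to 3757 lower, lowest without fish 2 and highest without fish 4, and fewer arrays also carry fewer values. The counts without fish 1, 2 and 3 fell by over 1.5 times for higher probes, to 1277, 1046 and 1102. Array weights gave 3468 higher probes and a fit with all 10 arrays 3619. Requiring a difference of at least 2-fold left 640 probes, 58 higher and 582 lower, so that 9.1% of calls were higher against 42.3%, and 42 of 195 probes in the lists. Without 1 fish the probes in the lists numbered 132 to 216 and the probes of members 2832 to 3365, against 2605. The count of member probes can only stay or rise when a fish is left out, since the rule then asks for fewer arrays, so this rise says nothing about single fish. Before Lowess the median of all probes was -0.07 against 0.01.

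Of 159 named probes that passed, 119 passed under every alternative but the 2-fold one, 0 changed sign, 102 lost the call at 2-fold, 14 with values before Lowess and 23, 24, 24 and 1 without fish 1, 2, 3 and 4. The medians of 3 lists changed sign. That of pancreas and gut was 0.05 before Lowess with array medians set to 0 (-0.23 as reported), that of respiration -0.00 without fish 4 (0.05, and -0.00 to 0.06 over the left-out fish) and that of hox genes -0.01 before Lowess (0.16). The cause was not tested. No paired analysis was possible because 1 group of arrays was compared with the reference channel of the same arrays.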
